A study of Rattus norvegicus with 15 samples.

Results

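Paraspinal muscle of rats that were given plasma-derived mitochondria (pMT) after spinal surgery is set here against the same muscle of rats that had no injury. The members are the 4 libraries labelled pMT and the 2 libraries labelled control, 6 of the 15 libraries of the series, chosen by their labels. The 2 surgery libraries are used to say which genes the injury moved, and the 3 libraries of operated rats given vitamin D (the VitD group) are used as a second set of operated muscle without pMT. The questions are what differs from uninjured muscle after pMT, and which injury genes were back at the control level.

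All rats were male, wild type Sprague Dawley animals of 12 weeks, and RNA of the multifidus, a deep muscle along the spine, was read by paired-end sequencing. The operation, on day 0, was a left hemilaminectomy with ligation of the L5 spinal nerve, so it both wounds the muscle and cuts off part of its nerve supply. On day 14 the pMT group received mitochondria isolated from human plasma, 25 μg in 100 μL of SHE buffer at each of the L4–L5 and L5–L6 levels on the left, 50 μg per rat, and muscle was taken on day 28. Control rats had neither the operation nor an injection.

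The surgery group had the operation and no treatment. The VitD group had the operation and cholecalciferol, 150 μg per site and 300 μg per rat, and the pMT/VitD group received both agents, while the sources used here state no injection day for either. No group was injected with buffer alone. The pMT and control groups therefore differ in the operation, the injection and the mitochondria at once, and the shares of these cannot be told apart in that comparison. How many donors the injected mitochondria came from is not stated in the sources used here.

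Muscle that loses its nerve supply is known to turn some embryonic genes back on. Nerve activity normally keeps acetylcholine receptor genes silent outside the synapse, and denervated fibres induce the factor myogenin (Myog), the receptor subunits Chrna1, Chrnd and Chrng and the adhesion molecule Ncam1 along the whole fibre. A wound also brings in macrophages and other immune cells, raises complement and class II major histocompatibility genes, and activates fibroblasts that lay down collagen, fibronectin and matricellular proteins. As a muscle recovers, these programmes are switched off again, and what is left of them can be read in bulk RNA, where fewer cells of a type and less RNA per cell cannot be told apart.

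pMT replicates 1 to 4 had totals of 57208844, 73557878, 66595547 and 63128802 counts, and controls 1 and 2 had 68592996 and 64352162. Levels are given as CPM, counts relative to library size, scaled by trimmed mean of M-values (TMM) factors. Sums over a gene list are in the deposited TPM unit, which is corrected for gene length. The labels do not say that each library is a separate rat, so p-values measure the spread between these samples. Skeletal muscle markers were abundant in all 6 libraries: the 11 of them summed to 167101 and 152646 TPM in the controls and 156811, 158803, 162216 and 133893 TPM in pMT replicates 1 to 4. The most abundant of them was Acta1, skeletal alpha actin, and none was at 0.

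pMT replicate 4 stood apart from the other pMT libraries. Over 3129 genes with a mean log2 CPM above 5, its root mean square distance to pMT replicates 1 to 3 was 0.365 to 0.555 log2 units, against 0.165 to 0.320 among those 3 and 0.136 between the controls. Its distance to the controls was 0.398 to 0.40, against 0.195 to 0.315 for pMT replicates 1 to 3 and 0.379 to 0.393 for the surgery libraries. It was nearer to pMT/VitD replicates 1 to 3, at 0.18 to 0.314, while pMT/VitD replicate 4 lay 0.166 to 0.201 from the controls, 0.200 to 0.259 from pMT replicates 1 to 3, and 0.372 to 0.479 from the other libraries of its own group. The labels are used as deposited. Whether these 2 libraries carry the right labels was not tested, and the pMT values below depend on it. Of its counts, 22.6% fell on the 13 protein-coding mitochondrial genes, against 12.9%, 11.7% and 11.1% in pMT replicates 1 to 3, 14.5% and 15.6% in the controls, and 10.7% and 11.2% after surgery. Mybph, a thick filament protein of muscle, stood at 849 CPM in it and at 36.1 to 54.2 CPM in the other pMT libraries. The results that moved most with this library are given with and without it. The surgery libraries were closest to each other, at 0.0637. Their counts still differed beyond sampling noise, with a median chi-square per gene of 1.32 against 0.455 from sampling alone. The same median was 2.32 for the control pair and 2.73 to 19.4 for the pMT pairs.

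No gene was called between the pMT and control groups. Throughout, a gene is called when edgeR's quasi-likelihood test, fitted on all 15 libraries, gave it a Benjamini-Hochberg adjusted p under 0.05. Of 17201 genes tested, 0 were called (0%), and the smallest adjusted p from that test was 1. An unadjusted p under 0.05 was found for 528 genes (3.07%), 348 of them higher after pMT (2.02%) and 180 lower (1.05%). DESeq2 also called 0 genes, with 647 at an unadjusted p under 0.05, and the quasi-likelihood test fitted on these 6 libraries alone called 0, with 667. Other tools did call genes: edgeR's exact test on the 6 libraries called 12 (0.0733%) and limma voom with a quality weight for each library called 231 (1.34%).

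A p that misses the threshold does not show that a gene was at the control level, so intervals were used as well. The 95% interval of the difference between pMT and control lay inside a 2-fold margin, log2 -1 to 1, for 12442 genes (72.3%). It did so for 10842 of the 11497 genes whose mean log2 CPM was 1 or more (94.3%), and for 1600 of the 5704 below that level (28.1%), where the median standard error was 0.48. All 4 pMT libraries were above both controls for 1275 genes (7.41%) and below both for 1336 (7.77%). The median difference over all genes was 0.00 on the log2 scale. Scaling by library size alone moved that median to 0.13, and removing a trend on gene length moved it to -0.10, so differences of that size depend on the scaling.

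The operation moved 266 genes by the same test, 1.55% of those tested: 215 were higher after surgery (1.25%) and 51 lower (0.296%). These are called injury genes below. Their number depends on the tool: it was 997 with scaling by library size only, 1001 by DESeq2, 4938 by limma voom, 5289 with the quasi-likelihood test on the 2 groups alone and 5923 by the exact test. For 155 of them, 58.3%, the gene was also called between pMT and surgery in the opposite direction, and its interval of pMT against control lay inside 2-fold. They are described as returned, and 125 of them were higher and 30 lower after surgery. In all, 334 genes were called between pMT and surgery (1.94%), 68 higher (0.395%) and 266 lower (1.55%). At an unadjusted p under 0.05 there were 2923 genes between surgery and control (17%), 1771 higher (10.3%) and 1152 lower (6.7%). Between pMT and surgery there were 2455 (14.3%), 915 higher (5.32%) and 1540 lower (8.95%).

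Another 56 injury genes, 21.1%, had an interval inside 2-fold of control but were not called between pMT and surgery. For 37 genes, 13.9%, the pMT libraries were called apart from surgery while the interval against control was wider than the margin. The last 18, 6.77%, met neither condition. No injury gene was called between pMT and control in the direction of the injury, so 0 were partly returned and 0 were still apart. Likewise, 0 genes were called apart from both control and surgery. Those 3 counts rest on the absence of calls between pMT and control, and by limma voom they were 8, 112 and 69 (by edgeR's exact test, 1, 7 and 2).

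The comparisons of surgery and of pMT with control share the control libraries, and those of surgery with control and with pMT share the surgery libraries, so their values are set side by side only. Over the 215 higher injury genes, the median log2 difference from control was 1.12 after surgery and 0.22 after pMT. Over the 51 lower ones it was -0.88 and -0.18. Of all 266, 211 (79.3%) had an interval of pMT against control inside 2-fold, where 72.3% of all genes did, and this share depends on abundance. At a mean log2 CPM of 1 or more, 193 of 213 injury genes were inside, where 94.3% of all genes were. Every pMT library was above both controls for 79 of the 215 higher injury genes and below both for 1, where 7.41% and 7.77% of all genes were. For the 51 lower ones, 21 were below both controls and 0 above. The injury genes were chosen with the same control libraries, so nothing is read from these counts.

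**Figure D1:**
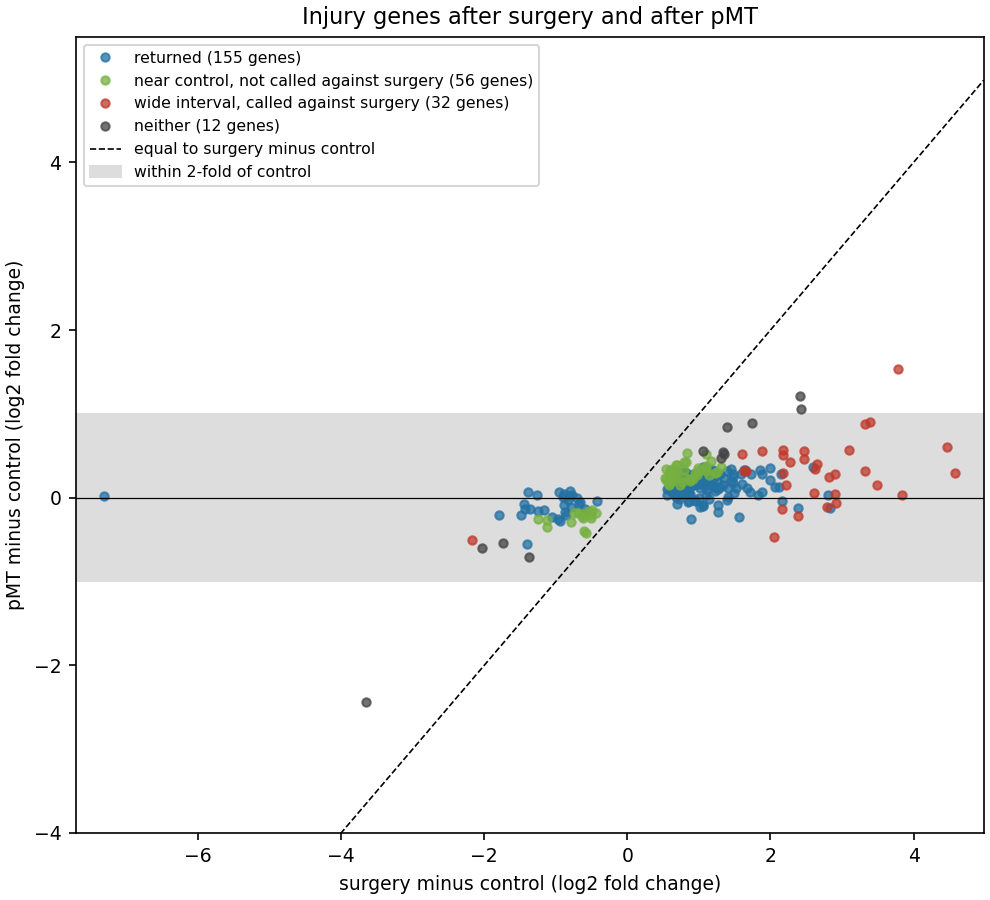
Log2 difference from control of 255 injury genes after surgery (horizontal axis) and after pMT (vertical axis), 1 point per gene, coloured by whether the gene returned; 11 genes at 3 or fewer counts in the controls are not plotted. Most points lie in the band within 2-fold of control, far from the dashed line on which pMT would equal surgery.

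The return was seen in each pMT library. Over 170 higher injury genes whose mean log2 CPM was 1 or more, the median log2 level relative to the control mean was 0.16, 0.21, 0.20 and 0.17 in pMT replicates 1 to 4, and 1.03 and 1.05 in the surgery libraries. Over 43 lower ones it was -0.13, -0.16, -0.19 and -0.15 in the pMT libraries, and -0.82 and -0.81 after surgery. Replicate 4, which stood apart in other respects, was inside the range of the other 3 on both medians. It had the most genes past the midpoint between control and surgery, 17 of the 170 and 7 of the 43. The other 3 had 8 to 14 and 3 to 5. In the pMT/VitD libraries the higher genes had medians of 0.05, -0.10, 0.01 and 0.05.

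Operated muscle of the VitD group gave a second measure, since the comparison of pMT with VitD shares no library with that of surgery with control. Its 3 libraries had medians of 1.28, 1.01 and 0.83 over the same higher genes. By the distance used above, VitD replicate 2 was 0.0821 and 0.107 log2 units from the surgery libraries. It lay further from VitD replicates 1 and 3, at 0.417 and 0.157. Its label was used as deposited and was not tested. Between pMT and VitD, 193 of the 215 higher injury genes were called lower after pMT, where 5.45% of all genes were, and 41 of the 51 lower ones were called higher, where 2.65% were. These groups differ in vitamin D as well as in pMT. Over all genes, 1393 were called between pMT and VitD (8.1%), and 3992 had an unadjusted p under 0.05 (23.2%), 1729 higher after pMT (10.1%) and 2263 lower (13.2%). Between VitD and control 1492 genes were called (8.67%), 942 higher (5.48%) and 550 lower (3.2%), and 4432 had an unadjusted p under 0.05 (25.8%), 2452 higher (14.3%) and 1980 lower (11.5%).

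The number of returned genes depends on single libraries of all 3 groups. It was 5 without control replicate 1, 3 without control replicate 2, 9 without surgery replicate 1 and 16 without surgery replicate 2, where injury genes themselves numbered 8, 8, 12 and 20. Without pMT replicates 1, 2, 3 or 4 it was 75, 57, 122 or 163. Without both pMT and pMT/VitD replicate 4, it was 299 of 716 injury genes. The returned share also depends on the scaling and the model. It was 22.2% with library size only (221 of 997), 20.9% with the length trend removed (193 of 923), 42% by DESeq2 (420 of 1001) and 66.1% by limma voom (3263 of 4938). It was 8.52% with the 2 groups alone (444 of 5209 genes tested in each fit) and 35.8% with a block for the replicate number (38 of 106).

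Injury genes that rose after surgery and returned were led by Ctxn3, which encodes a small membrane protein. Its level was 0.836 and 1.37 CPM in the controls, 7.69 and 8.01 CPM after surgery and 1.13, 0.921, 0.882 and 1.13 CPM in pMT replicates 1 to 4. All 4 pMT libraries lay between the controls, far from the surgery libraries. It rose by 2.83 log2 units after surgery (adjusted p = 0.0103, edgeR quasi-likelihood test with Benjamini-Hochberg adjustment), and pMT differed from control by -0.12 (SE 0.40, 95% interval -0.97 to 0.73). Wisp2 encodes a secreted matricellular protein of the CCN family. It stood at 2.15 and 1.73 CPM in the controls, 14.4 and 12.8 CPM after surgery and 1.77, 1.91, 2.44 and 1.81 CPM after pMT. pMT replicates 1, 2 and 4 lay between the controls and replicate 3 above them, none near the surgery level. The difference of pMT from control was 0.03 (SE 0.28, 95% interval -0.56 to 0.62).

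Mustn1, a nuclear protein expressed in developing and regenerating muscle, had 69.4 and 65.9 CPM in the controls and 414 and 404 CPM after surgery. It had 116, 96.0, 76.1 and 61.7 CPM after pMT, so that 3 pMT libraries lay above both controls and replicate 4 below them, all well under the surgery libraries. The log2 difference from control was 2.59 after surgery and 0.37 after pMT (SE 0.24, 95% interval -0.14 to 0.88). Serpina3n is a secreted inhibitor of serine proteases made in inflamed tissue. Its level was 1.44 and 1.47 CPM in the controls, 8.14 and 7.06 CPM after surgery and 1.53, 1.25, 1.06 and 1.48 CPM after pMT, so the pMT libraries lay on both sides of the controls. C4a, a complement component of the classical pathway, had 8.66 and 8.53 CPM in the controls, 38.9 and 38.0 CPM after surgery and 9.03, 9.16, 9.32 and 6.01 CPM after pMT. pMT replicates 1 to 3 were just above the controls and replicate 4 was below them. Between pMT and surgery C4a fell by 2.20 log2 units (adjusted p = 3.59e-05, edgeR quasi-likelihood test with Benjamini-Hochberg adjustment). Reads could be shared between C4a and C4b, whose sequences are almost the same.

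Among injury genes that fell after surgery and returned, the naming rule passed over 6 with larger changes than the last of the 5 named, for their symbol or for a mean log2 CPM under 1. Of the 5 named, Mpp3 encodes a scaffold protein of cell junctions and synapses. It had 22.3 and 19.8 CPM in the controls, 7.82 and 7.19 CPM after surgery and 16.7, 21.6, 21.3 and 13.2 CPM after pMT. pMT replicates 2 and 3 lay between the controls and replicates 1 and 4 below them, all above the surgery libraries. Ppp1r3c encodes a subunit that brings protein phosphatase 1 to glycogen and favours its synthesis. Its level was 573 and 605 CPM in the controls, 244 and 246 CPM after surgery and 605, 629, 675 and 509 CPM after pMT, with control and pMT libraries overlapping. The log2 difference from control was -1.27 after surgery (adjusted p = 0.0279, edgeR quasi-likelihood test with Benjamini-Hochberg adjustment) and 0.04 after pMT (95% interval -0.43 to 0.50).

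Ush1c, which encodes the scaffold protein harmonin, had 3.86 and 3.78 CPM in the controls, 1.76 and 1.23 CPM after surgery and 3.25, 3.51, 3.05 and 4.16 CPM after pMT. pMT replicate 4 was above both controls and the other 3 were below them. Ccdc92 encodes a coiled-coil protein of centrioles, and it was the returned gene of this group that stayed furthest from control. It had 51.1 and 48.0 CPM in the controls, 18.0 and 19.4 CPM after surgery and 31.5, 35.8, 41.8 and 25.5 CPM after pMT. Every pMT library was below both controls and above both surgery libraries. Its difference from control after pMT was -0.56 (SE 0.17, 95% interval -0.93 to -0.19, unadjusted p = 0.006), inside the 2-fold margin and not inside a 1.5-fold one. With a 1.5-fold margin, 96 injury genes were returned in place of 155.

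**Figure D2:**
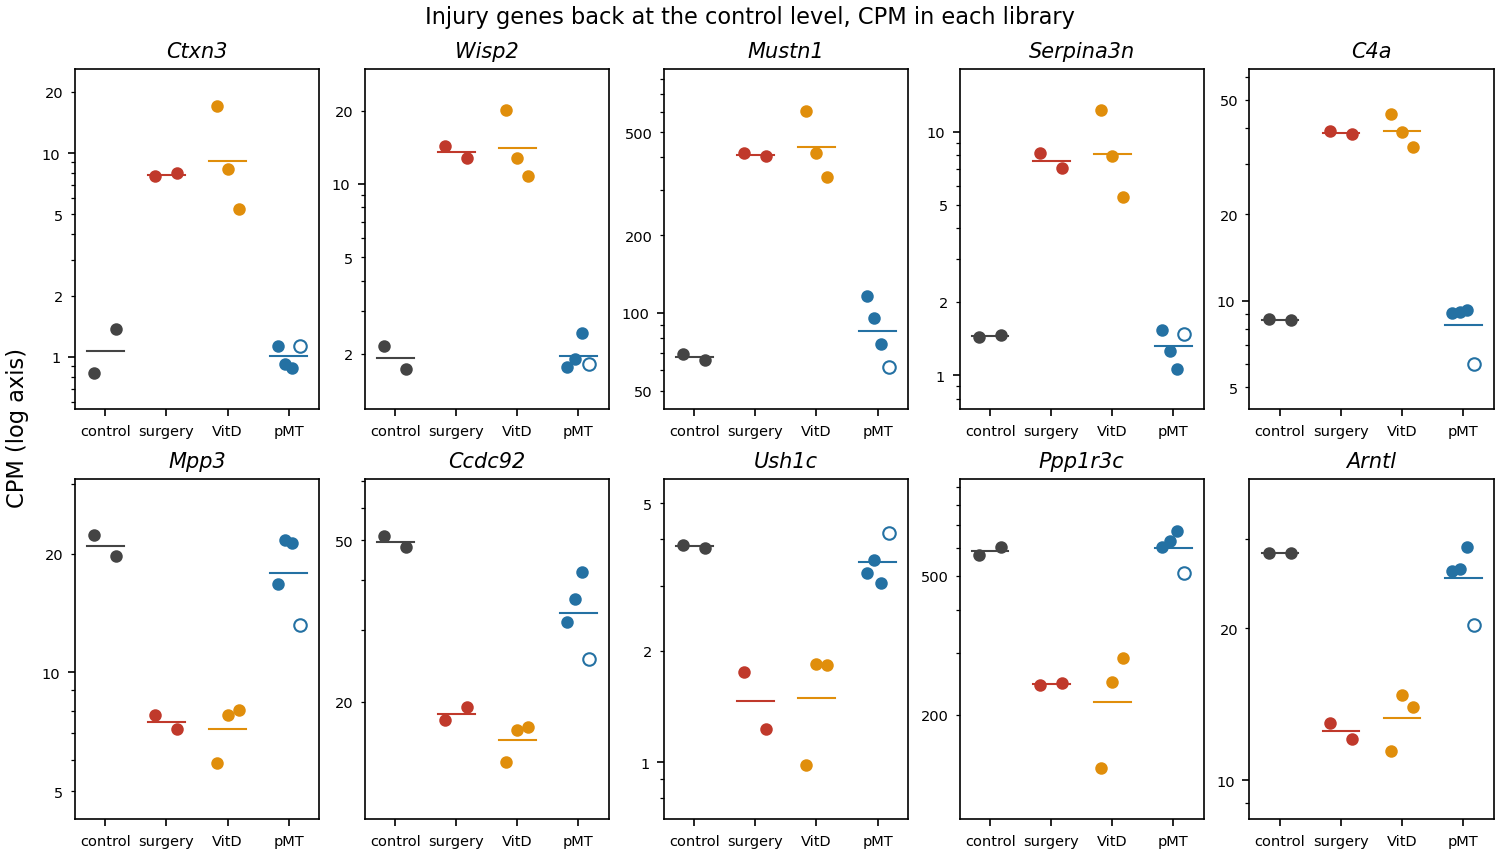
CPM on a log axis of the 5 higher and 5 lower returned genes named by rule, 1 point per library and a line at each group's geometric mean; VitD is shown as well, and the open circle is pMT replicate 4. For C4a the panel shows 6.01 to 9.32 CPM after pMT, 8.53 and 8.66 in the controls and 38.0 and 38.9 after surgery.

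A larger change than any of these was found in LOC691532, a pseudogene passed over by the naming rule and named here after its values were seen. Its counts were 1878 and 1797 in the controls, 15 and 13 after surgery and 1660, 1687, 1374 and 2860 after pMT. The surgery libraries held almost none of these reads, and the pMT libraries lay around the control level. Over the series, the 5 surgery and VitD libraries held 13 to 15 counts and the other 10 held 1374 to 3248. Any other difference between these sets of libraries cannot be told apart from injury and return in this gene, and none was tested. Reads of a pseudogene could come from its parent gene.

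Of the genes known from denervated muscle, myogenin (Myog), the factor that drives receptor genes, had 20.5 and 18.3 CPM in the controls, 48.7 and 46.6 CPM after surgery and 23.9, 22.8, 19.4 and 28.6 CPM after pMT. Replicate 3 was between the controls and the other pMT libraries were above them, none near the surgery libraries. Its difference from control was 1.29 after surgery and 0.28 after pMT (SE 0.17, 95% interval -0.09 to 0.65), or 0.18 without replicate 4. Of the 20 genes listed for the neuromuscular junction and denervation, 19 were tested. After surgery 4 were called higher, where 1.25% of all genes were, and against surgery 6 were called lower after pMT, where 1.55% of all genes were. Of these, 3 were returned: Myog, Chrna1 and Ncam1. The interval of pMT against control was inside 2-fold for 14 of the 19, near the 72.3% of all genes. Chrna1, the receptor's alpha subunit, had 4.86 and 5.23 CPM in the controls, 13.8 and 14.5 CPM after surgery and 4.99, 4.77, 4.49 and 6.75 CPM after pMT, where replicate 4 alone was above both controls. Ncam1, the neural cell adhesion molecule, had 13.5 and 11.3, then 26.5 and 26.0, then 12.1, 14.2, 15.9 and 15.2 CPM in the same order. These and the other list members below that are given with values, beyond the most abundant ones, were named after their values were seen.

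The embryonic receptor subunit Chrng was the member of that list furthest above control. Its counts were 9 and 6 in the controls, 159 and 98 after surgery and 11, 32, 20 and 30 after pMT. All pMT libraries were above both controls and below both surgery libraries. The difference of pMT from control was 1.53 (95% interval 0.01 to 3.06, unadjusted p = 0.0493), and against surgery the gene fell by 2.25 log2 units (adjusted p = 0.0431, edgeR quasi-likelihood test with Benjamini-Hochberg adjustment). Ache, acetylcholinesterase, was the most abundant member per length and had 63.8 and 52.5 CPM in the controls and 55.7, 64.8, 70.1 and 40.1 CPM after pMT. The list's median difference from control was 0.09 after pMT and 0.28 after surgery, beside 0.00 and -0.01 over all genes.

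Known motifs were searched in the promoters of 4 injury genes, 3 of the denervation list and 1 of the clock, and the sequences are shown so that the letters can be read. CAGCTG is a form of the E-box CANNTG that myogenic factors such as myogenin bind, and TAGGTCA is the core of the element bound by ROR and REV-ERB nuclear receptors. Genes and motifs were chosen after the values were seen. The 250 bases before each start were taken from RefSeq in build GRCr8, searched on both strands, and printed in lower case with the motif in capitals. Of 33469 promoters of this length, 12% hold CAGCTG, 65.5% hold CANNTG, which includes CAGCTG, and 2.26% hold TAGGTCA. A match is a description of the letters and not of a site in use. Chrna1 (chr3:78877354-78877603, minus strand) has 2 matches to CAGCTG, Chrng (chr9:95325734-95325983, plus strand) has 1, Myog (chr13:48297226-48297475, plus strand) has 2 matches to CANNTG, and Arntl (chr1:176766078-176766327, plus strand, named Bmal1 in that table) has 1 match to TAGGTCA.
Chrna1: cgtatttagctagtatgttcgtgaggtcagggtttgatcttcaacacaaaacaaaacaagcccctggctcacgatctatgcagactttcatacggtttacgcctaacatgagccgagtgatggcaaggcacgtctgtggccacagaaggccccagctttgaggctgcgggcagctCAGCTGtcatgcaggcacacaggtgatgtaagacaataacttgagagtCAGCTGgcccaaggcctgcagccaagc
Chrng: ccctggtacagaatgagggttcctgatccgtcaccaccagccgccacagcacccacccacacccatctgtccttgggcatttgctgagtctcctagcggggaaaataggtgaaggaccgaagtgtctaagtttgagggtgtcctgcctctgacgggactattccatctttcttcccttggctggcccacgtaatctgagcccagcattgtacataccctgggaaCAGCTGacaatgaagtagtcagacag
Myog: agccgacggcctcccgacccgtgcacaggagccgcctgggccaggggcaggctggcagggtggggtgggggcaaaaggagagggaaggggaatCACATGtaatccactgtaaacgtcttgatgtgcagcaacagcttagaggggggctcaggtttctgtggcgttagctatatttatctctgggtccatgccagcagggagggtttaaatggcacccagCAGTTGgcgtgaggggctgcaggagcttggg
Arntl: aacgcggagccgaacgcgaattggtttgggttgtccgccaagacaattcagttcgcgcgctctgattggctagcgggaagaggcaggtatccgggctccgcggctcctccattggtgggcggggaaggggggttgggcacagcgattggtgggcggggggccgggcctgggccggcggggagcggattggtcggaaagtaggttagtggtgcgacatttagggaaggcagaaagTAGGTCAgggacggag

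Among sarcomere genes of embryonic muscle, cardiac alpha actin (Actc1) had 19 and 17.3 CPM in the controls, 186 and 178 CPM after surgery and 17.4, 21.3, 26.2 and 25.4 CPM after pMT. Replicate 1 was between the controls and the other pMT libraries were above them, far below the surgery libraries. The difference of pMT from control was 0.32 (95% interval -0.64 to 1.27), so a 2-fold difference was not excluded by the interval. Embryonic myosin (Myh3) had 30.7 and 21.9 CPM in the controls, 326 and 335 CPM after surgery and 17.7, 57.2, 61.7 and 15.5 CPM after pMT, with pMT replicates 2 and 3 above both controls and 1 and 4 below them. It was not called after surgery (adjusted p = 0.0537, edgeR quasi-likelihood test with Benjamini-Hochberg adjustment), while Actc1 and Tnnt2 were. Cardiac troponin T (Tnnt2) had 2.30 and 2.23, then 19.8 and 19.2, then 2.59, 3.10, 3.57 and 4.23 CPM in the same order, and all 4 pMT libraries were above the controls. Actins and myosins are near-identical families, so reads could be shared between members.

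Of these 6 listed developmental sarcomere genes, 2 were called higher after surgery (1.25% of all genes) and 3 lower after pMT than after surgery (1.55% of all genes). None was returned, and 0 of the 6 had an interval of pMT against control inside 2-fold, where 72.3% of all genes did. Their median difference from control after pMT was 0.55, and 0.23 without replicate 4, which held the Mybph value given above. After surgery it was 2.29. The most abundant members were Mybph and perinatal myosin (Myh8), which had 197 and 199.8 CPM in the controls and 153, 223, 308 and 56.4 CPM after pMT.

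Ankrd1, a stretch-responsive protein of the sarcomere and nucleus, had the largest rise after surgery among injury genes that were not at the floor in the controls. Its level was 10.3 and 10.4 CPM in the controls, 244 and 253 CPM after surgery and 14.1, 14.4, 15.3 and 7.15 CPM after pMT. pMT replicates 1 to 3 were above the controls and replicate 4 was below them. The difference of pMT from control was 0.30 (SE 0.59, 95% interval -0.98 to 1.57), or 0.49 without replicate 4, and against surgery it fell by 4.29 log2 units. Cdkn1a, which encodes the cell cycle inhibitor p21, had 9.23 and 8.61 CPM in the controls, 55.6 and 54.0 CPM after surgery and 10.6, 11.0, 9.89 and 13.7 CPM after pMT. All pMT libraries were slightly above both controls. It was the only one of 16 listed p53 targets called after surgery.

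Of 33 listed complement genes, 27 were tested, and 19 of these had an interval of pMT against control inside 2-fold, near the 72.3% of all genes. Of the 27, 7 were called higher after surgery (1.25% of all genes) and 11 lower after pMT than after surgery (1.55% of all genes), and 5 were returned, among them C2, C4a and Cfd. C2, the protease that joins C4 in the classical convertase, had 21.9 and 21.5 CPM in the controls, 44.9 and 42.2 CPM after surgery and 21.1, 21.3, 22.9 and 21.4 CPM after pMT. The pMT libraries straddled the controls, and the 95% interval of the difference was -0.25 to 0.25. C3, the central component, had 0.536 and 0.816 CPM in the controls, 2.47 and 3.67 CPM after surgery and 1.13, 0.806, 1.21 and 0.703 CPM after pMT, and its interval of -0.12 to 1.15 reached past 2-fold. The most abundant members, Clu and Cd59, are inhibitors of the terminal complex and were not called after surgery. The list's median difference from control was 0.00 after pMT and 0.61 after surgery.

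Among class II genes of antigen presentation, the invariant chain Cd74 had 244 and 233 CPM in the controls, 436 and 429 CPM after surgery and 251, 231, 196 and 249.8 CPM after pMT. pMT replicates 2 and 3 were below both controls and replicates 1 and 4 above them. Its difference from control after pMT was -0.04 (95% interval -0.34 to 0.26). RT1-Da, a class II alpha chain, had 82.2 and 84.8, then 138 and 138, then 86.7, 83.1, 75.1 and 95.7 CPM in the same order. Ciita, the coactivator that turns class II genes on, had 1.44 and 1.72, then 3.5 and 3.5, then 1.70, 2.38, 2.05 and 1.76 CPM. Of 10 class II genes tested, 3 were called higher after surgery (1.25% of all genes), all of them returned, and 5 lower after pMT than after surgery (1.55% of all genes). The interval of pMT against control was inside 2-fold for 8 of the 10, where it was for 72.3% of all genes. Their median difference from control was 0.11 after pMT and 0.90 after surgery. RT1 genes are close relatives and can share reads.

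Macrophage markers were examined next, and the part of cell numbers in the results was not tested. Of 18 listed markers, 17 were tested, 6 were called higher after surgery (1.25% of all genes were), and those 6 were returned, as 58.3% of injury genes were: Adgre1, Aif1, Lyz2, Trem2, Gpnmb and Lyve1. Summed over the list, the level was 199.7 and 198 TPM in the controls, 462 and 470.4 TPM after surgery and 241, 260.0, 274 and 171 TPM after pMT. pMT replicates 1 to 3 were above both controls, replicate 4 was below them, and all were below the surgery libraries. TPM sums fall as the mitochondrial share of a library rises, and by mean log2 CPM pMT replicate 1 lay between the controls and replicate 2 level with the higher one, at 3.08 and 3.15 in the controls and 3.13, 3.15, 3.25 and 2.93 in the pMT libraries. The most abundant member was Lyz2, lysozyme, with 73.4 and 75.5 CPM in the controls, 157 and 159 CPM after surgery and 83.8, 81.5, 79.0 and 86.6 CPM after pMT. Marco, a scavenger receptor, was at 0 in the control and pMT libraries. The median difference from control was -0.05 after pMT, 0.08 without replicate 4, and 0.80 after surgery. Adgre1, the F4/80 antigen, had 6.67 and 6.68, then 15.3 and 15.8, then 6.57, 8.23, 8.59 and 4.71 CPM. Gpnmb, a glycoprotein of lipid-laden macrophages, had 7.21 and 7.13, then 25.5 and 26.4, then 7.04, 8.73, 10.7 and 9.39 CPM, with pMT replicate 1 below both controls and the other 3 above. Apoe, the lipid carrier that macrophages secrete in wounds, had 122 and 104 CPM in the controls, 462 and 435 CPM after surgery and 121, 132, 136 and 134 CPM after pMT. The pMT and control ranges overlapped in it.

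Lymphocyte markers were at very low levels. The T and NK cell list had a median difference of 0.27 after pMT and 1.13 after surgery, with 12 of 13 members tested. After surgery 2 were called higher (1.25% of all genes), and 1 was called lower after pMT than after surgery (1.55% of all genes). The interval of pMT against control was inside 2-fold for 2 of the 12. It was for 72.3% of all genes and for 28.1% of those below a mean log2 CPM of 1. Of the 2 called after surgery, Nkg7, a granule protein of cytotoxic cells, had counts of 10 and 12 in the controls, 73 and 71 after surgery and 39, 33, 21 and 16 after pMT. All pMT libraries were above both controls and below both surgery libraries. The other was Cd247, the signalling chain of the T cell receptor, at 0 and 0 counts in the controls, 31 and 26 after surgery and 18, 19, 6 and 6 after pMT. With no counts in the controls, its fold change is not given. The summed level of the list was 17.0 and 18.5 TPM in the controls, 40.3 and 40.3 TPM after surgery and 19.6, 21.9, 24.6 and 12.6 TPM after pMT. The most abundant member was Cd4, which macrophages express as well. Klrb1 was at 0 in control and pMT libraries. For B and plasma cells, 8 of 11 members were tested and 0 were called after surgery, where 1.55% of all genes were. Of the 8, 2 had an interval of pMT against control inside 2-fold. That held for 72.3% of all genes and for 28.1% of those below a mean log2 CPM of 1. The median of that list was 0.44 after pMT, 0.23 with genes at the floor set to their bound, and 0.10 without replicate 4, against 1.3 after surgery. Its summed level was 4.10 and 3.28 TPM in the controls and 4.02, 5.13, 5.34 and 4.01 TPM after pMT, led by Sdc1, and Tnfrsf17 was at 0.

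At the floor of 3 counts or fewer in both controls were 11 injury genes. Of them, 5 were called lower after pMT than after surgery. Mab21l3, a gene of unknown role in muscle, is the clearest, with counts of 0 and 0 in the controls, 212 and 250 after surgery and 0, 8, 11 and 0 after pMT. The other 6 were not called against surgery. Among them Tnfrsf18, a costimulatory receptor of T cells, had 0 and 0 counts in the controls, 18 and 22 after surgery and 10, 6, 6 and 12 after pMT. Oip5, a centromere protein, had 0 and 0, then 15 and 14, then 4, 14, 15 and 7 counts. Eomes, a factor of cytotoxic lymphocytes, had 2 and 0, then 30 and 20, then 6, 6, 6 and 2 counts. In Tnfrsf18 and Oip5 every pMT library held more counts than both controls, while in Eomes replicate 4 equalled the higher control. This depth sets no narrow interval.

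Fcer1a, the alpha chain of the IgE receptor, had 1.12 and 1.37 CPM in the controls, 0.375 and 0.341 CPM after surgery and 1.15, 0.934, 1.14 and 1.09 CPM after pMT. It fell after surgery by 1.79 log2 units (adjusted p = 0.0235, edgeR quasi-likelihood test with Benjamini-Hochberg adjustment) and was returned, with pMT and control libraries overlapping. Of the 9 neutrophil and mast cell markers tested it was the only one called. Their median was -0.07 after pMT and -0.75 after surgery, and the summed level was 22.6 and 25.3 TPM in the controls, 22.1 and 22.0 TPM after surgery and 29.3, 28.5, 26.8 and 21.8 TPM after pMT. The most abundant was the mast cell chymase Cma1.

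Of 37 matrix turnover and matricellular genes tested, 6 were called higher after surgery (1.25% of all genes) and 8 lower after pMT than after surgery (1.55% of all genes), and 25 had an interval of pMT against control inside 2-fold, where 72.3% of all genes did. The 5 returned ones were fibronectin (Fn1), the crosslinking enzymes Loxl1 and Plod2, the collagen chaperone Serpinh1, and thrombospondin 2 (Thbs2). Fn1 had 156 and 152 CPM in the controls, 318 and 322 CPM after surgery and 179.6, 194, 209 and 151 CPM after pMT. pMT replicates 1 to 3 were above both controls and replicate 4 was below them. Loxl1 had 20.8 and 17.6, then 56.6 and 58.4, then 23.8, 22.8, 22.0 and 24.6 CPM, with every pMT library above both controls. Periostin (Postn), a protein of active fibroblasts, had 59.6 and 67.3, then 278 and 294, then 55.2, 84.6, 108 and 64.1 CPM, and its interval of -0.49 to 1.08 reached past 2-fold. The list's median was 0.17 after pMT and 0.75 after surgery.

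Of 41 collagen genes tested, 2 were called higher after surgery (1.25% of all genes) and both were returned: Col6a6 and Col14a1. Against surgery, 5 were called lower after pMT (1.55% of all genes). The interval of pMT against control was inside 2-fold for 25 of the 41, where it was for 72.3% of all genes. The most abundant, Col3a1 and Col1a1, are the fibrillar collagens of scar and tendon. Col1a1 had 458 and 388 CPM in the controls, 1069.9 and 1047 CPM after surgery and 335, 467, 601 and 412 CPM after pMT. It was not called after surgery, fell by 1.22 log2 units between pMT and surgery, and its pMT and control libraries overlapped. The collagen median was 0.10 after pMT and 0.45 after surgery. Fibroblast markers were examined as well, and their part was not tested. The 12 markers summed to 1557 and 1548 TPM in the controls, 2009 and 2004 TPM after surgery and 2061, 2108, 2079 and 1276 TPM after pMT, with none at 0 and Gsn the most abundant. By mean log2 CPM the order differed: 5.98 and 6.02 in the controls, 6.41 and 6.42 after surgery and 6.16, 6.12, 6.03 and 6.02 after pMT. On that scale pMT replicates 1 to 3 were above both controls, replicate 4 was level with control replicate 2, and all 4 were below both surgery libraries. Fap, fibroblast activation protein, was the only one of the 12 called after surgery and was returned.

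Arntl, which encodes the core clock factor BMAL1, had 28.2 and 28.2 CPM in the controls, 13.0 and 12.1 CPM after surgery and 26.0, 26.2, 29.0 and 20.2 CPM after pMT. pMT replicate 3 was above both controls and the other pMT libraries were below them, all above the surgery libraries. Npas2, which encodes a partner of BMAL1, had 7.89 and 6.82, then 4.03 and 3.57, then 6.57, 7.69, 8.81 and 7.86 CPM. Dbp, an output gene that BMAL1 activates, had 19.3 and 18.0, then 54.4 and 52.3, then 20.6, 18.5, 16.5 and 24.9 CPM. These 3 were returned, while Nfil3, a repressor of the same sites as Dbp, had 75 and 65.1, then 29.3 and 29.5, then 67.1, 62.6, 58.1 and 46.5 CPM, was within 2-fold of control and was not called against surgery. The median over 19 clock genes was -0.08 after pMT and -0.14 after surgery. The time of day of tissue collection is not stated in the sources used here, so its part could not be tested.

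The 31 genes of glycolysis and glycogen had a median difference of 0.00 after pMT and -0.41 after surgery. Slc16a3, the lactate exporter of fast fibres, was the only one of them called after surgery. It had 301 and 279 CPM in the controls, 164 and 166 CPM after surgery and 279, 286, 299 and 315 CPM after pMT, and it was returned with overlapping libraries. The most abundant members, Aldoa and Gapdh, were not called. All 75 nuclear genes of oxidative phosphorylation tested had an interval inside 2-fold of control, where 72.3% of all genes and 97.3% of those with a mean log2 CPM above 5 did. Their median was 0.01 after pMT, -0.18 without replicate 4, and -0.16 after surgery. Medians for the 24 genes of fatty acid oxidation were 0.02 after pMT and -0.18 after surgery, and for the 29 of mitochondrial biogenesis and dynamics -0.06 and -0.19. Of the oxidative phosphorylation, fatty acid oxidation and mitochondrial biogenesis lists, 0 members were called in either comparison with control.

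Transcripts of the mitochondrial genome depended strongly on pMT replicate 4. ND5, a subunit of complex I, had 3999.8 and 4577 CPM in the controls, 1858 and 2022 CPM after surgery and 2519.9, 2529, 2553 and 5177 CPM after pMT. pMT replicates 1 to 3 lay between the surgery and control libraries, and replicate 4 above all of them. Over the 13 protein genes the median difference from control was -0.16 with all 4 libraries and -0.55 without replicate 4, against -0.83 after surgery. No member was called in either comparison. The list's sum was 224824 and 243974 TPM in the controls, 168312 and 176688 TPM after surgery and 201269, 191976, 191849 and 306301 TPM after pMT. Counts were assigned to the rat genome, and whether any of these reads came from the injected human mitochondria was not tested.

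Fibre type genes did not pass the test. The 14 fast fibre genes had a median of -0.22 after pMT and -0.26 after surgery, and 6 of them had every pMT library below both controls, where 7.77% of all genes did. The 12 slow fibre genes had a median of 0.19 after pMT, 0.01 without replicate 4, and 0.23 after surgery. Among them the light chain Myl3 had 651 and 638 CPM in the controls and 646, 657, 645 and 1594 CPM after pMT, where replicate 4 alone stood out. The 19 calcium handling genes had a median of -0.18 after pMT, -0.06 without replicate 4, and -0.23 after surgery. Trim63, the atrophy ligase MuRF1, had 287 and 313 CPM in the controls, 304 and 297 CPM after surgery and 351, 302, 264 and 381 CPM after pMT. The 16 atrophy ligase and Foxo genes had a median of 0.09 after pMT and -0.15 after surgery, with 0 called.

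Transcripts of the proteins blotted in the study were within 2-fold of control by their interval in 13 of 15 cases, where 72.3% of all genes and 94.3% of those at a mean log2 CPM of 1 or more were. Desmin (Des), the intermediate filament that links myofibrils, was the furthest below control. It had 5271 and 5084 CPM in the controls, 3592 and 3574 CPM after surgery and 4044, 4203, 4232 and 3846 CPM after pMT. Every pMT library was below both controls and above both surgery libraries, and the difference from control was -0.34 (SE 0.15, 95% interval -0.66 to -0.02, unadjusted p = 0.0379). The energy sensor subunits Prkaa1 and Prkaa2 differed from control by 0.17 (95% interval -0.19 to 0.54) and -0.09 (95% interval -0.65 to 0.47). For the growth kinases Akt1 and Akt2 the differences were -0.03 (95% interval -0.27 to 0.21) and -0.21 (95% interval -0.52 to 0.09). Without replicate 4 they were 0.24 and 0.01 for the sensor subunits and -0.10 and -0.13 for the kinases. The mitochondrial coactivator Ppargc1a had 21.8 and 22.9 CPM in the controls, 17.2 and 18.3 CPM after surgery and 21.2, 26.8, 26.1 and 25.7 CPM after pMT, with replicate 1 below both controls and the others above them.

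The intervals of the remaining blotted transcripts varied with their level. The respiratory chain subunits Cox4i1, Ndufb8, Sdhb, Uqcrc2 and Atp5a1 differed from control by 0.04, -0.01, -0.04, -0.14 and -0.15, all with intervals inside 2-fold. Without pMT replicate 4 the differences were -0.20, -0.17, -0.13, -0.10 and -0.16, so that all 5 were negative. The pro-apoptotic factor Bax differed by 0.25 (95% interval -0.29 to 0.79), or 0.08 without replicate 4. Bcl2, its inhibitor, had 0.268 and 0.467 CPM in the controls and 0.387, 0.358, 0.496 and 0.185 CPM after pMT, and its interval of -1.07 to 1.0 was at the margin. The atrophy factor Foxo3 had 7.0 and 6.87 CPM in the controls and 6.32, 8.51, 12.4 and 1.98 CPM after pMT, with replicates 2 and 3 above the controls and 1 and 4 below them, and an interval of -1.25 to 1.41. Without replicate 4 the difference was 0.17 for Bcl2 and 0.39 for Foxo3, against -0.03 and 0.08 with it.

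Other lists had 0 members called between pMT and control, as did every list above. Medians after pMT and after surgery were 0.15 and 0.39 for satellite cell and myogenic factors, 0.14 and 0.07 for stretch genes, and 0.05 and 0.24 for growth factors. H19, an imprinted RNA of growing muscle and the most abundant of the last list, had 4969 and 4619 CPM in the controls, 10116 and 9867 CPM after surgery and 4633, 4212, 3570.4 and 5556 CPM after pMT. It was returned, with pMT replicates 2 and 3 below both controls and replicate 4 above them. Chemokines and cytokines had medians of -0.17 and 0.24, and the chemokine Ccl6 was returned, at 7.56 and 8.83, then 18.9 and 20.4, then 7.55, 8.38, 7.36 and 5.79 CPM. Interferon-stimulated genes had 0.19 and 0.41, the cell cycle 0.19 and 0.66, and p53 targets 0.07 and 0.19.

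For stress and housekeeping lists, the medians after pMT and after surgery were 0.01 and 0.28 for the Bcl2 family and caspases, 0.12 and 0.10 for heat shock genes, 0.01 and -0.07 for metallothioneins and antioxidants, 0.04 and -0.09 for the proteasome, and -0.15 and -0.22 for immediate early genes (-0.04 after pMT without replicate 4). All 4 pMT libraries were above both controls for 7 of 16 heat shock genes and below both for 1, where 7.41% and 7.77% of all genes were. Among the antioxidants, catalase (Cat), the peroxisomal enzyme that breaks down hydrogen peroxide, is described with the genes outside injury below.

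Markers of other cell types were examined in the same way. All 12 endothelial markers were higher after pMT than in control by their fitted difference, where 50.6% of all genes were. Of them, 2 had an unadjusted p under 0.05, where 2.02% of all genes were higher at that p. For 3 of the 12, every pMT library was above both controls, where 7.41% of all genes were. All members tested were also higher in the erythroid (6), B and plasma cell (8) and neuron (4) lists. In the erythroid and neuron lists this depended on pMT replicate 4. Without it the erythroid genes Hba2 and Hbb were at -0.01 and -0.02 and the neuron gene Stmn2 at -0.05. The most abundant B and plasma cell genes, Sdc1 and Cd79a, stayed higher without it, at 0.05 and 0.14. The endothelial list had a median of 0.18 after pMT, 0.27 without replicate 4, and 0.15 after surgery. Their sum was 219 and 209 TPM in the controls, 299.9 and 300.2 TPM after surgery and 282, 323, 342 and 185 TPM after pMT, with replicate 4 lowest. By mean log2 CPM, replicate 4 was level with control replicate 1 and the other pMT libraries above the surgery libraries, at 5.25 and 5.18 in the controls, 5.35 and 5.35 after surgery and 5.41, 5.5, 5.51 and 5.25 after pMT. Pecam1 was the most abundant and none was at 0. Cldn5, the tight junction protein of endothelium, had 38.5 and 34.0 CPM in the controls, 32.4 and 32.5 CPM after surgery and 52.5, 49.1, 42.0 and 42.0 CPM after pMT, with every pMT library above both groups. Its difference from control was 0.35 (SE 0.12, unadjusted p = 0.0118), and it was called higher after pMT than after surgery (adjusted p = 0.0473, edgeR quasi-likelihood test with Benjamini-Hochberg adjustment).

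For the other cell types, the medians after pMT and after surgery were 0.20 and 0.31 for smooth muscle and pericytes (0.40 after pMT without replicate 4), 0.11 and 0.13 for Schwann cells, 0.15 and 0.12 for adipocytes, and 0.27 and -0.51 for erythroid genes (0.01 after pMT without replicate 4). Tendon, bone and cartilage markers had 0.40 after pMT, -0.47 without replicate 4, and 0.67 after surgery, so that list changes sign with 1 library. Neuron markers had 0.80 after pMT, 0.36 without replicate 4, and 0.85 after surgery, over 4 of 9 members tested. Every list median printed without such a second value moved by less than 0.1 when replicate 4 was left out. Fabp4, the adipocyte fatty acid carrier, led its list with 162 and 173 CPM in the controls, 242 and 249 CPM after surgery and 239, 224, 211 and 384 CPM after pMT. Every pMT library was above both controls in it, and the difference from control was 0.66 (95% interval -0.06 to 1.38, unadjusted p = 0.0703), and 0.42 without replicate 4.

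**Figure D3:**
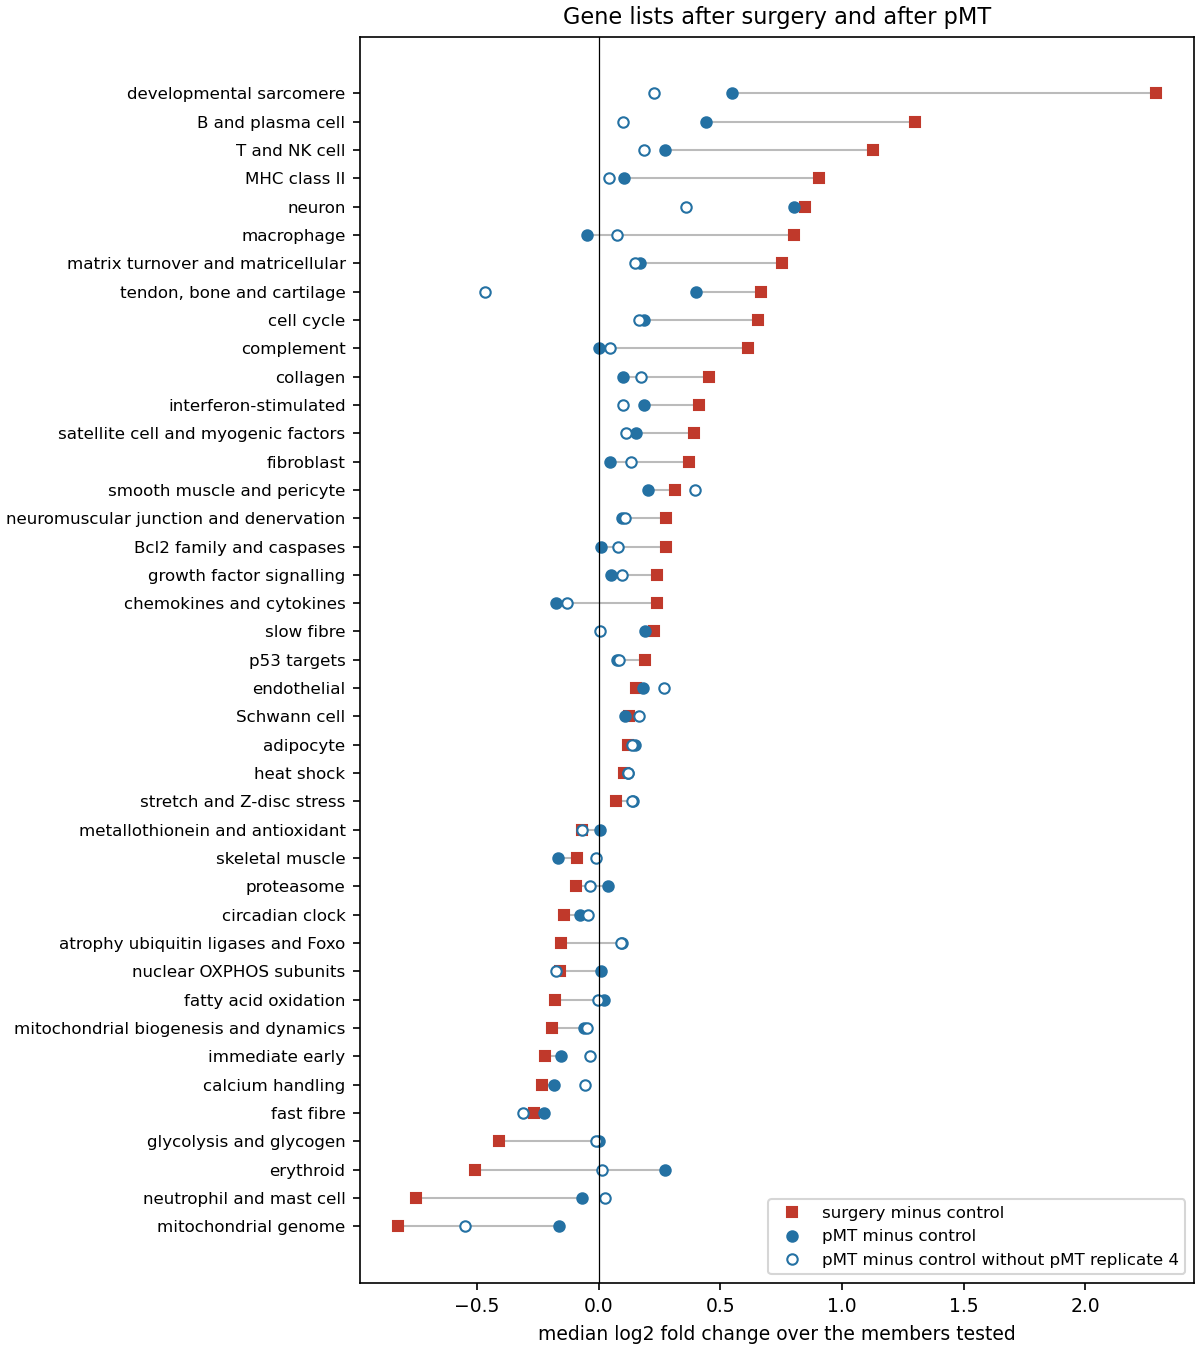
Median log2 difference from control over the tested members of each gene list after surgery (squares), after pMT (filled circles) and after pMT without replicate 4 (open circles). For 12 genes of the fibroblast list the medians are 0.37 after surgery and 0.05 after pMT, while for the mitochondrial genome they are -0.83 and -0.16, or -0.55 without replicate 4.

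What differed from uninjured muscle after pMT was small in most genes and did not pass the test with all libraries. The 528 genes at an unadjusted p under 0.05 were 3.07% of those tested, below the share of 0.05 expected if no gene differed. Genes given below with an unadjusted p are therefore only described. Without pMT replicate 4 and pMT/VitD replicate 4, 4 genes were called lower after pMT, among them Fos, Fosb and Trnm. These were named after their values were seen. Leaving out pMT replicate 4 alone, 0 genes were called. Fos stood at 38.6 CPM in pMT/VitD replicate 4, against 2.49 to 4.19 CPM in the other libraries of its group. Fos, an immediate early factor that muscle activity and handling induce, had 21.9 and 20.3 CPM in the controls, 17.7 and 17.0 CPM after surgery and 8.95, 8.56, 9.10 and 2.33 CPM after pMT. Every pMT library was below both controls and both surgery libraries, and replicate 4 was lowest. The difference from control was -1.54 with all libraries (SE 0.83, 95% interval -3.33 to 0.25, unadjusted p = 0.0868), and -1.24 without both replicate 4 libraries (adjusted p = 0.0194, edgeR quasi-likelihood test, Benjamini-Hochberg adjusted). Its paralog Fosb had 2.54 and 2.13, then 0.969 and 0.846, then 0.674, 0.589, 0.799 and 0.148 CPM, so that surgery libraries were below the controls as well. Trnm, the mitochondrial methionine tRNA, had 61.8 and 73.6, then 32.6 and 33.3, then 41.6, 40.7, 37.6 and 97.7 CPM, and replicate 4 was above the controls.

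The most abundant of the 15 listed, Nr4a1 and Jun, had 174 and 144 and 130.2 and 122 CPM in the controls and 175, 158, 133 and 107 and 163, 149, 127 and 112 CPM after pMT, and both ranges overlapped those of the controls. Phlda1, a growth-factor-induced protein, had 5.21 and 4.97 CPM in the controls, 6.32 and 6.0 CPM after surgery and 2.51, 2.98, 2.26 and 1.77 CPM after pMT. Every pMT library was below the other 4. Its difference from control was -1.09 (95% interval -2.0 to -0.18, unadjusted p = 0.0220), and it was among the 12 genes called by the exact test.

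The 12 genes called by edgeR's exact test were 2 higher and 10 lower after pMT. Besides Phlda1 and Fosb, the lower ones included Rn18s, the 18S ribosomal RNA, with 1268 and 1812 CPM in the controls, 304 and 269.5 CPM after surgery and 289.8, 363, 177 and 465 CPM after pMT. The pMT and surgery libraries overlapped in it, both far below the controls. VitD replicates 1 to 3 had 3052, 322 and 310 CPM, the first above both controls. Rmrp, the RNA of a nuclear and mitochondrial endoribonuclease, had 6.17 and 3.12, then 0.517 and 0.218, then 0.674, 1.27, 0.510 and 0.961 CPM, and it was an injury gene not called between pMT and surgery. Leng8 had 29.5 and 25.8, then 14.7 and 13.1, then 12.5, 15.3, 18.3 and 14.3 CPM. How ribosomal RNA was removed in each library was not examined. The other lower ones were Cc2d2a, a protein of the ciliary base, and the unnamed loci LOC102553345, LOC100911299, LOC310926 and LOC102550942. Both higher ones, Col9a2 and Nsun3, were at 0 counts in the controls. Col9a2, a cartilage collagen, had 10, 21, 21 and 12 counts after pMT and 0 in the surgery libraries.

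**Figure D4:**
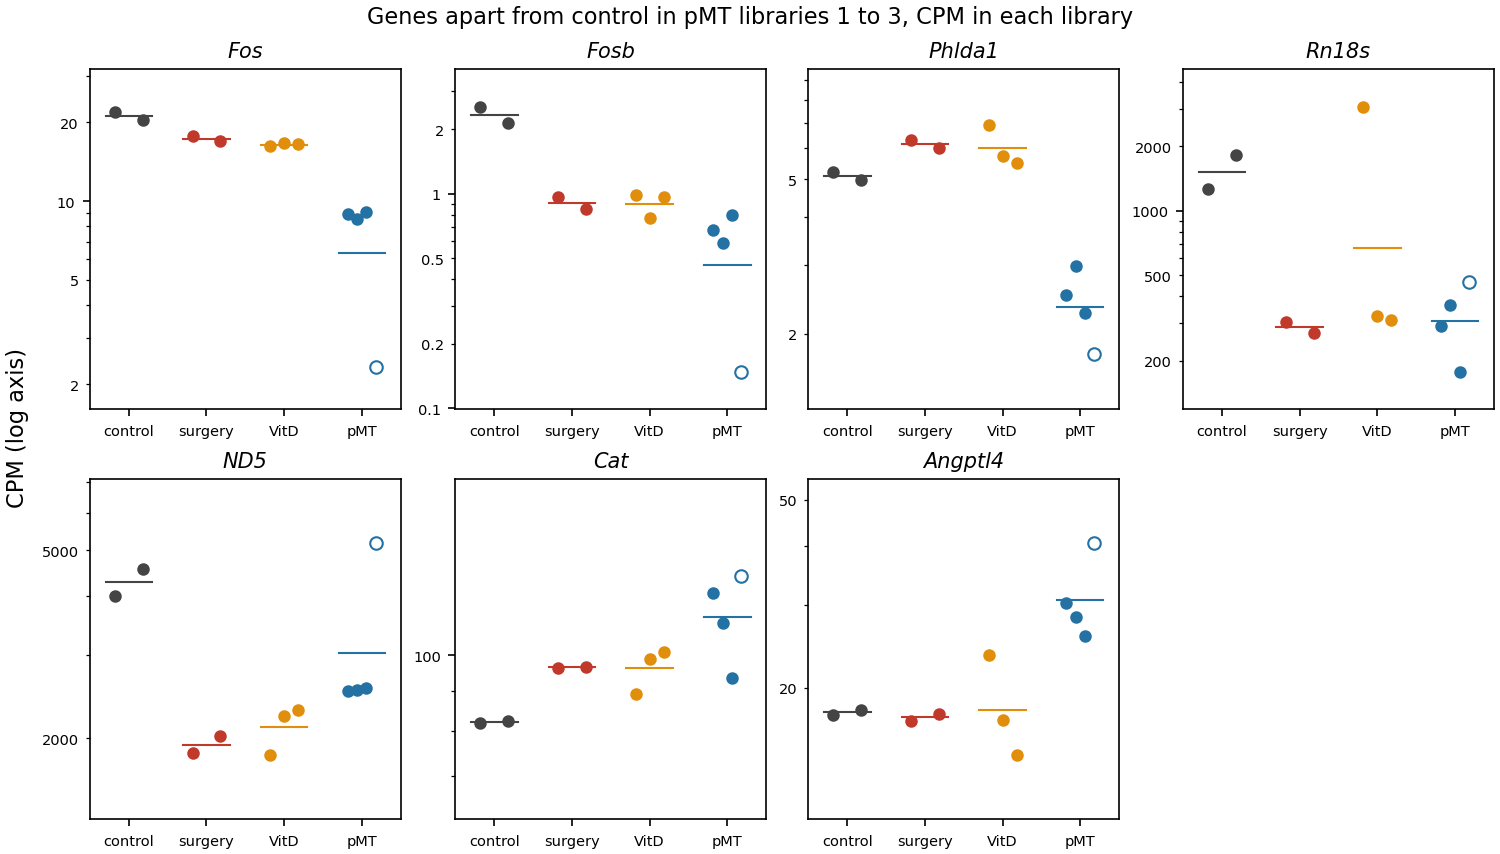
CPM on a log axis of 7 genes named after their values were seen, in which pMT replicates 1 to 3 were apart from both controls, 1 point per library and a line at each group's geometric mean; VitD is shown as well, and the open circle is pMT replicate 4. Fos stands at 2.33 to 9.10 CPM after pMT against 20.3 and 21.9 in the controls, and ND5 shows replicate 4 on the other side of the controls from replicates 1 to 3.

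Among genes with the smallest unadjusted p between pMT and control, at a mean log2 CPM from 1 upward and named after their values were seen, those higher after pMT included Kcnj8 and Gata2. Kcnj8, a potassium channel subunit of pericytes and smooth muscle, had 7.97 and 8.33 CPM in the controls, 10.2 and 11.0 CPM after surgery and 12.3, 11.0, 11.5 and 11.1 CPM after pMT. Gata2, a factor of endothelium and mast cells, had 5.73 and 5.97, then 5.90 and 5.92, then 7.90, 7.98, 8.13 and 7.03 CPM, and its surgery libraries were at the control level. Only genes with every pMT library beyond both controls were ranked here, so that separation was set by the choice and is not a result. For Kcnj8 and Gata2 the differences from control were 0.49 (SE 0.13) and 0.41 (SE 0.12), with unadjusted p of 0.00244 and 0.00384.

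The metabolic genes Angptl4 and Cat, named after their values were seen, were higher in every pMT library than in both controls. Angptl4, a secreted inhibitor of lipoprotein lipase, had 17.5 and 18.0 CPM in the controls, 17.0 and 17.6 CPM after surgery and 30.2, 28.2, 25.7 and 40.5 CPM after pMT. Surgery libraries were at the control level and all pMT libraries above. The difference from control was 0.81 (SE 0.29, 95% interval 0.20 to 1.42, unadjusted p = 0.0128), and 0.66 without replicate 4. Catalase (Cat) had 82.0 and 82.3, then 96.3 and 96.7, then 120.1, 109.9, 93.4 and 126 CPM, with pMT replicate 3 below the surgery libraries. Its difference from control was 0.45 (95% interval 0.13 to 0.77, unadjusted p = 0.00851).

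Genes lower than control after pMT with the smallest unadjusted p, also named after their values were seen, stood in different places relative to surgery. They too were ranked only among genes with every pMT library beyond both controls. Irak1, a kinase of the interleukin 1 and Toll-like receptors, had 46.1 and 45.7 CPM in the controls, 35.3 and 34.1 CPM after surgery and 37.3, 39.3, 38.3 and 37.4 CPM after pMT. Popdc3, a membrane protein of striated muscle, had 115 and 121, then 77.7 and 80.1, then 95.4, 88.3, 78.5 and 89.5 CPM. It was an injury gene within 2-fold of control. Elk1, a factor that acts with SRF on early genes, had 45.0 and 42.1, then 34.5 and 36.0, then 35.5, 32.7, 34.2 and 38.1 CPM. Stard6, a lipid transfer protein, differed in that its surgery libraries, at 3.04 and 3.08 CPM, were at the control level of 2.93 and 3.17 CPM, while the pMT libraries were lower, at 2.12, 1.71, 1.58 and 2.37 CPM.

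The 231 genes called by limma voom were 88 higher and 143 lower after pMT. Their median absolute difference from control was 0.48 on the log2 scale, and 54 differed by at least 2-fold, 4 of them higher. In 173 of the 231 every pMT library was beyond both controls, where 15.2% of all genes were, but the 231 were selected by a test on the same libraries. That fit gave pMT replicate 2 a weight of 5.80 and pMT replicate 4 a weight of 0.218, with 0.752 and 0.672 for replicates 1 and 3, so its pMT mean rests mainly on 1 library. The weights were 1.33 and 1.32 for the controls and 2.26 and 2.13 for the surgery libraries.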

How the data were processed

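Rat multifidus RNA was read in 15 libraries: 2 control, 2 surgery, 4 pMT, 3 VitD and 4 pMT/VitD. The deposited table by the authors gives read counts, values in TPM and FPKM for 37991 genes. The submitters' processing notes name Trimmomatic 0.38, HISAT2 2.1.0, SAMtools 1.9, StringTie 2.1.3b and edgeR 3.40.2, with rat build rn6. How reads matching several genes or strands were handled is not stated there.

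Counts were analysed in R 4.3.3 with edgeR 4.0.16. The filterByExpr function kept 17201 genes, libraries were scaled by TMM factors, and a robust quasi-likelihood model with 1 mean per group was fitted to all 15 libraries. The p-values were adjusted by Benjamini and Hochberg within each comparison, and a gene was called at an adjusted p under 0.05. This deviates from the study's exactTest, which was run as an alternative. An injury gene was returned when it was called between surgery and control, called in the opposite direction between pMT and surgery, and had a 95% interval of pMT against control inside 2-fold.

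Genes named by rule are the transcripts of blotted proteins, genes called between pMT and control, up to 5 returned genes higher and 5 lower after surgery, and the 2 most abundant members of each gene list per length. Returned genes were taken in the order of their change after surgery, among those whose mean log2 CPM was 1 or more, with a symbol that is unique and does not begin with LOC, RGD, AABR or Mir. Of 822 list members, 817 were matched to the table. Members and lists were chosen with earlier results of these data known. Alternatives tried were other scalings, DESeq2 1.42.0, limma 3.58.1 voom with quality weights, models on the 2 groups alone, other filters and thresholds, and leaving out libraries. Left out were each control, surgery and pMT library in turn, and pMT and pMT/VitD replicate 4 together. The scripts were tested on simulated data.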

Additional observations from a re-analysis of the deposited data

Results flagged for a closer look

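Of 70 values of pMT libraries tested for a library far from the other 3, 13 were set aside for a closer look, and all 13 belong to pMT replicate 4. By chance about 1 in 20 would be. Protein genes of the mitochondrial genome took 22.6% of its counts (11.1% to 12.9% in the others), with a summed TPM of 306301 (191849 to 201269).

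Its summed TPM was lower than in the others for fast fibre genes, 147193 (160844 to 162149), glycolysis and glycogen, 52425 (62622 to 63651), p53 targets, 552 (727 to 749.8), complement, 583 (920.5 to 983), chemokines and cytokines, 166 (259 to 269.5), heat shock genes, 5351 (6687 to 6873), and fibroblast markers, 1276 (2061 to 2108). It was higher for tendon, bone and cartilage, 49.6 (22.9 to 26.3), and for neuron markers, 31.4 (16.7 to 17.5). Among single genes, C4a had 6.01 CPM (9.03 to 9.32) and Akt1 117 CPM (96.7 to 99.3). TPM values share a fixed total, so a larger mitochondrial share lowers the other sums. The cause was not tested.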

How the results depend on the processing

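No gene was called between pMT and control by most alternatives. limma voom with quality weights called 231, edgeR's exactTest 12, and 4 were called without pMT and pMT/VitD replicate 4. An unadjusted exactTest p with a 2-fold change, added after the data were seen, gave 156. The cause was not tested.

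Genes called between surgery and control numbered 997 with library size only, 1001 by DESeq2, 4938 by voom, 5289 with the 2 groups only, 5923 by exactTest, 923 with the length trend removed, 154 with a 2-fold change required, and 716 without both replicate 4 libraries. Between pMT and surgery they numbered 747 by DESeq2, 6480 by voom, 520 with the 2 groups only, 1180 by exactTest, 176 with a 2-fold change, and 541 without both replicate 4 libraries. The cause was not tested.

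Returned genes numbered 420 by DESeq2, 3263 by voom, 444 with the 2 groups only, 62 with a 2-fold change required of every call, 87 with it required of injury genes, 96 with a 1.5-fold margin, 299 without both replicate 4 libraries, and 790 with VitD in place of surgery. exactTest gives no interval, so it gives no returned count. Genes still apart numbered 112 by voom, 7 by exactTest and 2 without both replicate 4 libraries, partly returned 8 by voom and 1 by exactTest, and apart from both groups 69, 2 and 2. List members called between pMT and control numbered 17, 2 and 2. The cause was not tested.

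Leaving out 1 control, surgery or pMT library gave 0 to 1 genes between pMT and control, 8 to 360 between surgery and control and 27 to 290 between pMT and surgery. Returned genes then numbered 3 to 163 and those still apart 0 to 1. Fewer libraries were tested, yet without pMT replicate 4 the injury genes rose from 266 to 360 and the returned ones from 155 to 163. The cause was not tested.

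With a block for the replicate number, 106 genes were called between surgery and control, 78 between pMT and surgery, and 38 were returned. The labels state no pairing by number. Correlations of deviations from the group mean were -0.02 for control and pMT replicate 1, 0.01 for replicate 2, and 0.143 for control and surgery replicates of a number, which with 2 libraries a group is 1 value. The cause was not tested.

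Fmod, a collagen-binding proteoglycan, reversed: its log2 difference between pMT and surgery was 0.28, and -0.77 by voom (adjusted p = 0.0388, limma voom with Benjamini-Hochberg adjustment). Without pMT replicate 4, to which voom gave a weight of 0.218, the quasi-likelihood fit gave -0.85. Below a log2 CPM of 1, depth left 28.1% of genes with an interval inside 2-fold.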

Other observations

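Of 24728 genes detected, 11 had a gap of more than 8-fold in CPM between the 5 surgery and VitD libraries and the other 10. The gap was taken between the nearest libraries of these sets. What else differs between the sets was not tested. The pseudogene LOC691532 had 13 to 15 counts against 1374 to 3248. Mab21l3 had 119 to 856 counts against 0 to 11, and LOC103690826 had 81 to 103 against 0 to 6. The other 8 had counts in each of the 5 libraries and 0 in the 10, among them Krt18, a keratin of simple epithelia, with 13 to 81 counts, and Tnn, the matrix protein tenascin N, with 13 to 107. For 3 of the 8 the lowest value was 1 count, which against 0 shows no fold difference.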
